A study of Homo sapiens with 18 samples.

Results

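The genes described here act in 3 mediator pathways: lysophosphatidate (LPAR1, LPAR2), chemerin (CMKLR1) and prostaglandin (PLA2G4A, PLA2G4D, PTGS1, PTGS2, PTGES, PTGER2, PTGER4). Lysophosphatidate and prostaglandins are lipids, while chemerin is a protein. The 10 genes were listed by symbol, and the list was chosen with measured values in view: LPAR1, CMKLR1 and PLA2G4D had already been singled out by their response to E2 in the ERβ line. Of the 10, 8 were detected and tested, among 13505 genes in all. They had 15 probes on the array, of which 11 passed the detection filter. The list holds receptors and enzymes, and no listed gene is a transporter. Transport is represented further on by the carrier SLCO2A1.

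The material was U2OS, a human osteosarcoma cell line, stably carrying a vector from which doxycycline induces estrogen receptor α (ERα) or estrogen receptor β (ERβ). Each line was grown untreated, induced with doxycycline, or induced and treated with E2 (estradiol, the main natural estrogen), which gave 6 groups of 3 single-colour Illumina arrays, 18 in all. Cells of every group carried a receptor vector, so no group was parental U2OS. The sources used here do not give doses, times, the promoter of the vector, or whether a line was 1 clone. Whether the samples of a group were grown as separate cultures is not in the labels, so the p-values measure the spread between arrays, which may be technical.

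Lysophosphatidate is a small phospholipid made outside cells, largely by the secreted enzyme autotaxin (ENPP2), and it signals through G-protein-coupled receptors such as LPAR1 and LPAR2. Chemerin is a secreted protein, encoded by RARRES2, that attracts leukocytes through the receptor CMKLR1, which also binds the lipid mediator resolvin E1. Prostaglandins begin with cytosolic phospholipase A2, which frees arachidonic acid from membranes. The cyclooxygenases PTGS1 and PTGS2 turn it into prostaglandin H2, PTGES makes prostaglandin E2 from that, and PTGER2 and PTGER4 are receptors that raise cyclic AMP when prostaglandin E2 binds. In bone, prostaglandin E2 is made by osteoblasts and acts on both bone formation and bone resorption.

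E2 acts through receptors that bind DNA at estrogen response elements, so the promoters of the 4 genes with the widest range of group means among the 10 are shown here for reference. Each is the RefSeq window of 250 bases before and 50 bases after an annotated start, in build GRCh38.p14, on the minus strand and written 5′ to 3′. Capitals mark matches, on either strand, to the hexamer AGGTCA, a single arm of the response element, to the Sp1 box GGGCGG or to the TATA box TATAAA. LPAR1 has 6 annotated starts. The third is shown because it holds that hexamer, a choice made after the search. The windows lie at chr9:111038421-111038720 (LPAR1), chr12:108320593-108320892 (CMKLR1), chr15:42094513-42094812 (PLA2G4D) and chr9:129752993-129753292 (PTGES).
LPAR1: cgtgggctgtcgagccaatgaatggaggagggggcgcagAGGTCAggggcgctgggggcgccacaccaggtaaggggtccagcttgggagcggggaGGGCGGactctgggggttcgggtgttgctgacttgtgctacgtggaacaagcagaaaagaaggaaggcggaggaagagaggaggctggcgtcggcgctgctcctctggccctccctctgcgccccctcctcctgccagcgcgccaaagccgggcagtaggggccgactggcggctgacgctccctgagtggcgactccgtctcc
CMKLR1: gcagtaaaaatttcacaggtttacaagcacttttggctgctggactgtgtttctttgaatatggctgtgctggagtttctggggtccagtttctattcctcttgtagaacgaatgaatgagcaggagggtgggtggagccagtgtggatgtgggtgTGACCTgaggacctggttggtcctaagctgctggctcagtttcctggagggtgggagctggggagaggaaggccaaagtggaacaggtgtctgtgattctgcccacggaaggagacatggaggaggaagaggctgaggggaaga
PLA2G4D: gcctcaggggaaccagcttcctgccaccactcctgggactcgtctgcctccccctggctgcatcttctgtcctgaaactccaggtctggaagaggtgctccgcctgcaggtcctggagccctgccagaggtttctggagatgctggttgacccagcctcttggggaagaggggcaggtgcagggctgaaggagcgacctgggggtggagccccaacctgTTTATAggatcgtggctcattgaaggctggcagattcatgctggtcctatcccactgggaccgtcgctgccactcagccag
PTGES: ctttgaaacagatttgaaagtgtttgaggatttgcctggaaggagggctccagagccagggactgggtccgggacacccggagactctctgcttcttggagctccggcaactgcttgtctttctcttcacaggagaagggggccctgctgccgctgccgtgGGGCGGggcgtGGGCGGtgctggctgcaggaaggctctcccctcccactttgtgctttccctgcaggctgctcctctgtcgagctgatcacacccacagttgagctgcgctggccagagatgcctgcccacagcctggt

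All 10 genes matched the RefSeq promoter table, with 16 windows between them. The hexamer AGGTCA was in 3 of the 16 windows and in 13.8% of all 35116 promoter windows. It was at bases -211 to -206 of the third LPAR1 start, at -213 to -208 of the fifth, and at -94 to -89 of CMKLR1, on the other strand. The full palindrome, GGTCA and its complement TGACC with 3 bases between, was in 0 of the 16 windows and in 0.057% of all windows. The Sp1 box was in 11 of 16 (45% of all), TATAAA in 4 of 16 (11.5%), and the AP-1 site TGACTCA in 1 of 16, that of LPAR2 (4.95%). The motifs were searched on both strands, hexamers within a palindrome included. These matches describe letters in the windows and nothing about receptor binding.

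Levels are normalized log2 signals. A probe counted as detected on an array where its detection p was below 0.01, and the detected range began at a level of 6.08 to 6.52, depending on the array. Where a probe was detected on no array of the lower group, the fold is a bound and is written as at least. Changes were tested with limma over all 13505 genes, with Benjamini-Hochberg adjustment and a threshold of 0.05. Probes differ in brightness, so levels are compared only within a probe. Across arrays, 19834 to 22485 probes were detected, and arrays of a group correlated at 0.985 to 0.994.

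The vectors were checked first. ESR2, which encodes ERβ, had a level of 11.26 ± 0.14 (SD, n = 3) in the ERβ line before induction, 15.94 ± 0.14 after it and 16.04 ± 0.01 once E2 was present. In the ERα line ESR2 was detected on 2 of 9 arrays, both with E2. ESR1, which encodes ERα, stayed near background in the ERα line, at 6.21 ± 0.47, 5.76 ± 0.28 and 6.33 ± 0.29 in the same order of groups, and was detected on 3 of its 9 arrays and on none of the ERβ line. The position of the ESR1 probe relative to the vector is not given here, so this probe does not check the ERα label. Of 10 bone and osteosarcoma markers, 7 were detected on all 18 arrays, COL1A2 and IBSP on 1 array each and SP7 on none. Of 8 leukocyte markers with a probe, PTPRC, CD3E and TYROBP were detected on none, while CD68 and ITGB2 were detected on all 18. LYZ was detected on 16 arrays, CD14 on 7 and ITGAM on 2.

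E2 raised 5 of the 8 detected genes in the ERα line (LPAR1, CMKLR1, PLA2G4D, PTGS2 and PTGES), lowered PTGER2, and left LPAR2 and PLA2G4A without a called change. Over all genes, 22% were called in this comparison. The median change over the 8 was 2.21 on the log2 scale, beside -0.0332 over all genes. The same 5 genes were higher with E2 in the ERβ line, where 13.8% of all genes were called and the medians were 1.38 and -0.0336. The ERβ comparison chose LPAR1, CMKLR1 and PLA2G4D, so its values are given as a description with no p-value for any of the 10 genes. Several of the genes passed the detection filter only through groups in which they were high (CMKLR1 on 8 arrays, PLA2G4D and PTGES on 6, PTGER2 on 9), so these counts are not support for a response of the list. In bulk RNA, fewer cells expressing a gene and less RNA per cell cannot be told apart. The plot of levels shows all 8 genes on every array.

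**Figure D1:**
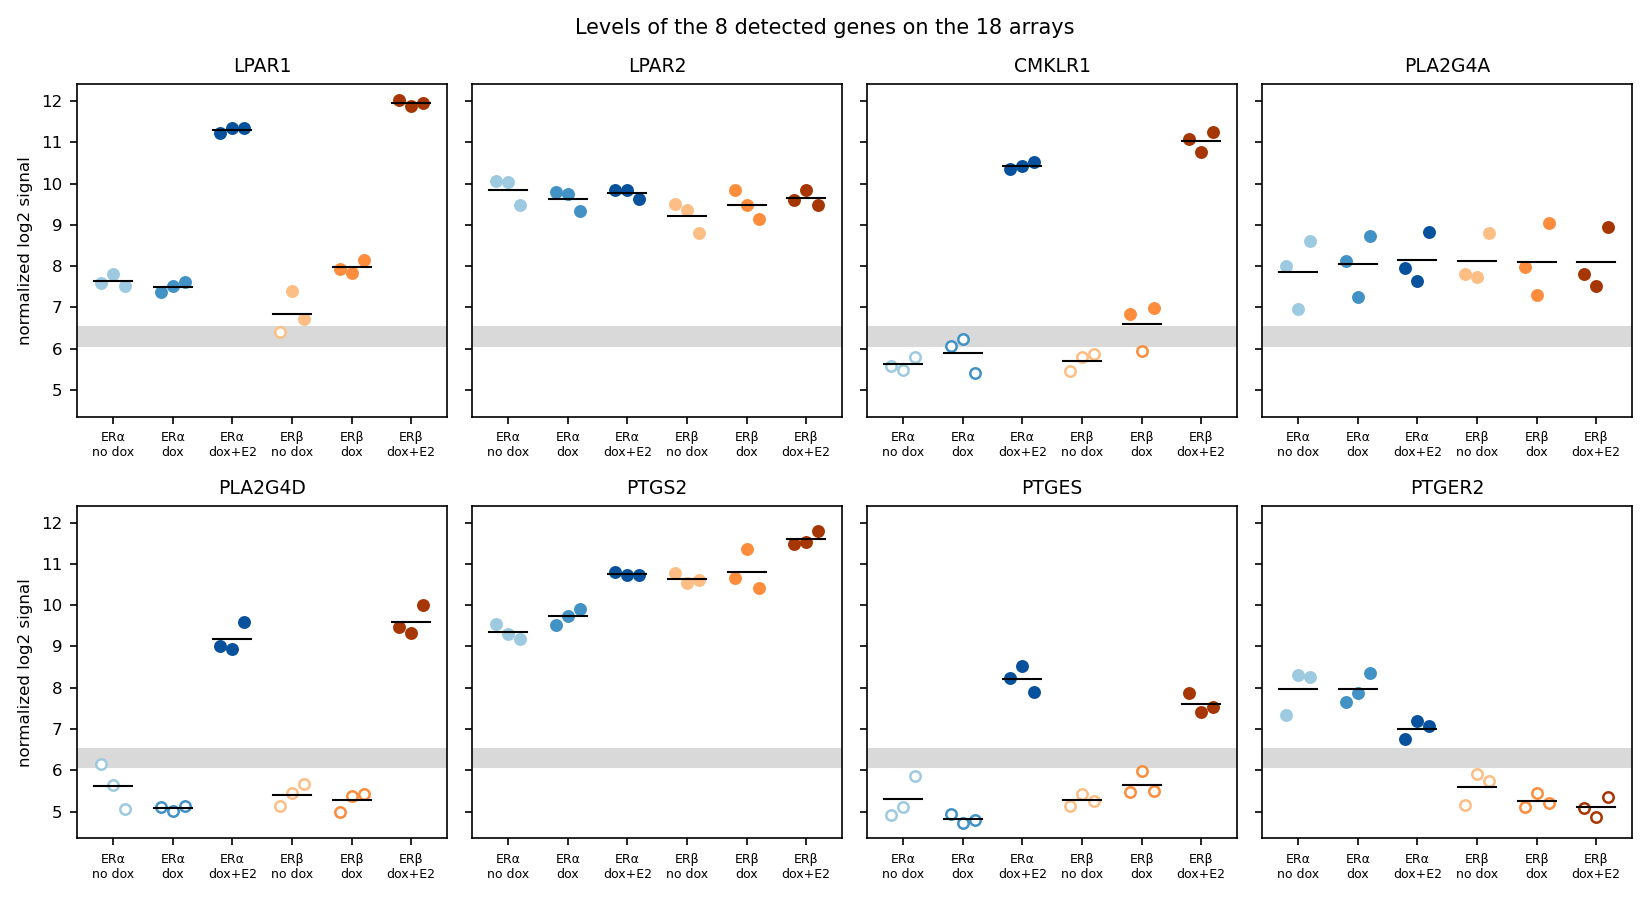
Normalized log2 signal (y axis) of the 8 detected genes in the 6 groups (x axis), with 1 point per array, open where the probe was not detected, a line at each group mean and a grey band where the detected range began (6.08 to 6.52). LPAR1, CMKLR1, PLA2G4D and PTGES are high with E2 in both lines, PTGS2 is higher with E2 in both, and PTGER2 is detected only in the ERα line.

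LPAR1, the most widely expressed of the lysophosphatidate receptors, had levels of 7.59, 7.82 and 7.51 in the ERα line without doxycycline, 7.37, 7.53 and 7.61 with it, and 11.22, 11.34 and 11.34 with E2. With the ERβ vector they were 6.41 (not detected), 7.41 and 6.72 without doxycycline, 7.93, 7.84 and 8.16 with it, and 12.04, 11.88 and 11.97 with E2. The 6 arrays with E2 lay above all others, and in each line the E2 group did not overlap the doxycycline group. E2 raised LPAR1 by 3.80 ± 0.18 (SE) on the log2 scale in the ERα line, 13.9-fold (limma, adjusted p = 8.29e-10). The ERβ line changed by 3.98 ± 0.18, or 15.8-fold.

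Doxycycline alone raised LPAR1 in the ERβ line by 1.13 ± 0.18, or 2.19-fold (limma, adjusted p = 3.98e-04), and the groups did not overlap. Without background correction this change was 0.55 and still called (adjusted p = 3.35e-04). In the ERα line it was -0.14 ± 0.18 (limma, adjusted p = 1.00). The difference between the doxycycline responses was 1.27 ± 0.26 (limma, adjusted p = 0.00466). The doxycycline arrays are shared with the E2 comparison of the same line. Without doxycycline, LPAR1 was 0.79 ± 0.18 lower in the ERβ line than in the ERα line, 1.73-fold (limma, adjusted p = 0.00206). In the order of group means, the E2 group of the ERβ line was above that of the ERα line by 0.66, with no overlap. The ERβ line with doxycycline came next, above the ERα line without it by 0.34 and with no overlap, and the neighbours further down overlapped.

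A dimmer LPAR1 probe was detected on 6 arrays, all with E2. Its levels with E2 were 7.33, 7.71 and 7.64 in the ERα line and 8.81, 8.45 and 8.60 in the ERβ line. It rose at least 2.38-fold with E2 in the ERα line (limma over all probes, adjusted p = 1.57e-09) and was at least 4.85-fold higher in the ERβ line. This probe passed the detection filter only through its 6 arrays with E2, so its high E2 groups are not separate support. Its E2 group of the ERβ line lay above that of the ERα line. The fitted E2 response of this probe was 0.76 ± 0.18 larger in the ERβ line, over baselines below detection in both lines, where the brighter probe gave 0.18 ± 0.26. With doxycycline alone in the ERβ line, the dimmer probe changed by 0.35 ± 0.13, undetected in both groups (limma over all probes, adjusted p = 0.0866).

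LPAR2, a second lysophosphatidate receptor, was detected on all 18 arrays, and its group means spanned 0.64. Its levels were 10.06, 10.03 and 9.48 in the ERα line without doxycycline, 9.81, 9.74 and 9.33 with it, and 9.85, 9.85 and 9.64 with E2. ERβ arrays gave 9.50, 9.35 and 8.82, then 9.84, 9.49 and 9.15, then 9.60, 9.85 and 9.48. Every neighbouring pair of groups in the order of means overlapped. The E2 change was 0.15 ± 0.21 in the ERα line (limma, adjusted p = 0.713) and 0.15 ± 0.21 in the ERβ line. The only comparison called at the settings used here was that between the lines without doxycycline, -0.64 ± 0.21, or 1.55-fold lower in the ERβ line (limma, adjusted p = 0.0213), although those arrays overlapped. This call was lost when either of 2 ERα arrays (adjusted p = 0.0823 or 0.0762) or 1 ERβ array (0.114) was left out. With only the 6 uninduced arrays fitted, it was lost without the replicate number as a block (adjusted p = 0.0641) and kept with it (limma, adjusted p = 0.0037). The difference between the doxycycline responses of LPAR2 was 0.51 ± 0.30 (limma, adjusted p = 0.385), and in the authors' processed values it was 0.44 and called (adjusted p = 0.0153, or 0.0339 with the block).

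CMKLR1, the chemerin receptor, went from undetected to bright. It was undetected on all 6 ERα arrays without E2 (5.40 to 6.23) and measured 10.37, 10.43 and 10.52 with E2. On the ERβ arrays it was undetected without doxycycline (5.46 to 5.88), measured 6.83, 5.95 (not detected) and 6.99 with doxycycline, and 11.08, 10.77 and 11.25 with E2. The 6 arrays with E2 stood clear of all others. In the ERα line E2 raised it at least 17.5-fold, a fitted change of 4.54 ± 0.25 (limma, adjusted p = 3.35e-09). The fitted change in the ERβ line was 4.45 ± 0.25, or 21.8-fold over a group detected on 2 of 3 arrays.

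The E2 group of the ERβ line exceeded that of the ERα line by 0.60 with no overlap, while the neighbours among the other 4 groups overlapped. Doxycycline alone raised CMKLR1 by 0.88 ± 0.25 in the ERβ line, at least 1.14-fold (limma, adjusted p = 0.0202). That call was lost when any 1 of 3 ERβ arrays was left out (adjusted p = 0.0897, 0.0798 or 0.0910), and without background correction the change was 0.30 (adjusted p = 0.0642). The difference between the doxycycline responses was 0.60 ± 0.35 (limma, adjusted p = 0.372). A second CMKLR1 probe was detected on 6 arrays, all with E2, at 7.88, 8.33 and 7.96 in the ERα line and 8.77, 8.63 and 8.67 in the ERβ line. It rose at least 3.36-fold in the ERα line (limma over all probes, adjusted p = 2.23e-08) and was at least 5.09-fold higher in the ERβ line. This second probe passed the detection filter only through its arrays with E2, so its rise is not separate support.

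PLA2G4D, the δ form of cytosolic phospholipase A2, was detected only with E2. In the ERα line its levels were 9.02, 8.93 and 9.59 with E2, and in the ERβ line 9.47, 9.33 and 10.004. The other 12 arrays lay at or below 6.16 and were all undetected. E2 raised it at least 7.32-fold in the ERα line, a fitted change of 4.10 ± 0.26 (limma, adjusted p = 1.48e-08). It was at least 9.58-fold higher in the ERβ line, a fitted change of 4.33 ± 0.26. The E2 groups of the lines overlapped, with means 0.42 apart. A further PLA2G4D probe was undetected on all 18 arrays, so the rise rests on 1 probe. PLA2G4D entered the test only through its 6 arrays with E2, and with no detection filter its adjusted p for E2 in the ERα line was 1.51e-08.

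PLA2G4A, the α form of the same enzyme and its most studied member, showed no called change in any comparison. Its levels were 8.01, 6.96 and 8.61 in the ERα line without doxycycline, 8.13, 7.26 and 8.74 with it, and 7.95, 7.65 and 8.84 with E2. The ERβ arrays gave 7.80, 7.75 and 8.82, then 7.98, 7.31 and 9.05, then 7.82, 7.52 and 8.95. In 6 of 6 groups the last column in file order was the highest and the middle column the lowest. The group means spanned 0.29, against a pooled SD of 0.746 between arrays of a group, which was larger than that of 99.1% of genes (median 0.174). The E2 change was 0.10 ± 0.55 in the ERα line (limma, adjusted p = 0.938) and -0.01 ± 0.55 in the ERβ line.

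In the authors' processed values the pooled SD of PLA2G4A was 0.119, beside a median of 0.106 over genes. Of all genes, 8.2% had their highest array at the same place in all 6 groups, and 8.8% their lowest. LPAR2 was lowest in the last column in 6 of 6 groups. The columns of the groups with doxycycline carry no replicate number, so whether columns of the same place share a batch was not tested.

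**Figure D2:**
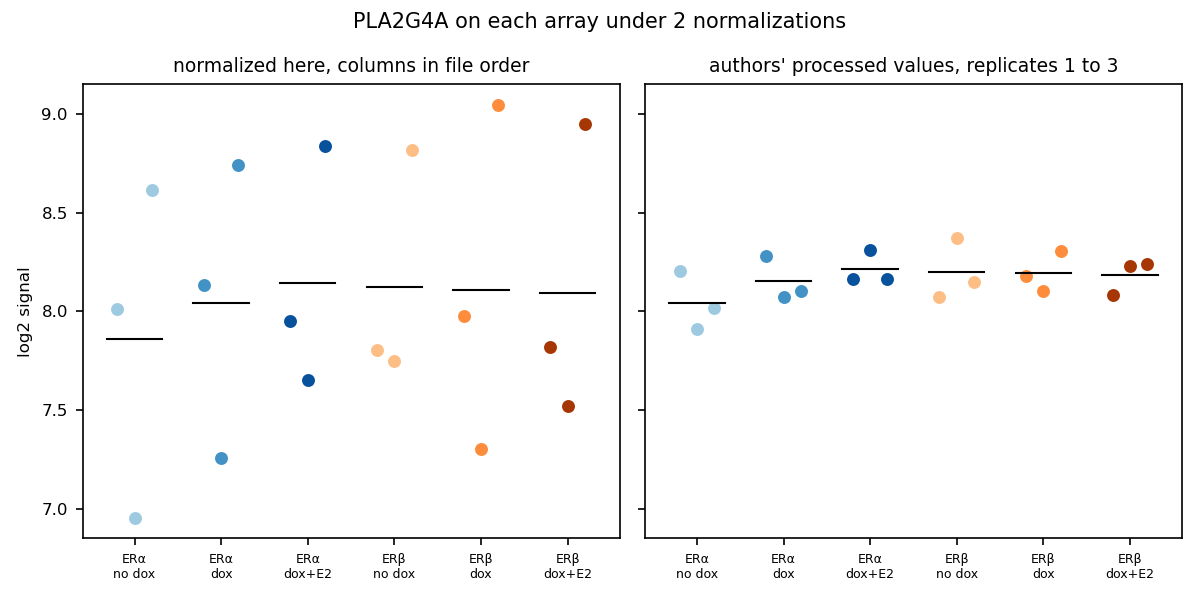
PLA2G4A on each array, as log2 signal (y axis) in the 6 groups (x axis), normalized here (left, columns in file order) and in the authors' processed values (right, replicates 1 to 3), with a line at each group mean. On the left the same place is highest in every group and the pooled SD is 0.746, and on the right it is 0.119.

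PTGS2, the inducible cyclooxygenase, was well detected on every array. Its levels in the ERα line were 9.55, 9.30 and 9.17 without doxycycline, 9.53, 9.74 and 9.91 with it, and 10.79, 10.73 and 10.73 with E2. Levels in the ERβ line were 10.77, 10.54 and 10.62, then 10.65, 11.36 and 10.40, then 11.49, 11.53 and 11.79. The E2 arrays lay above the doxycycline arrays in each line, and the ERβ groups without E2 overlapped the ERα group with it. E2 raised PTGS2 by 1.02 ± 0.19 in the ERα line, 2.03-fold (limma, adjusted p = 9.18e-04), and the change in the ERβ line was 0.80 ± 0.19, or 1.74-fold. The difference between these responses was -0.22 ± 0.27 (limma, adjusted p = 0.770).

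Without doxycycline PTGS2 was 1.30 ± 0.19 higher in the ERβ line, 2.46-fold (limma, adjusted p = 3.86e-05), with no overlap. Doxycycline changed it by 0.39 ± 0.19 in the ERα line (limma, adjusted p = 0.972) and 0.16 ± 0.19 in the ERβ line (adjusted p = 0.632). A second PTGS2 probe was detected on all 18 arrays and gave 1.85-fold with E2 in the ERα line (limma over all probes, adjusted p = 0.0132), 1.90-fold in the ERβ line, and 3.00-fold between the lines without doxycycline (adjusted p = 4.68e-05). On that probe the ERα groups with and without doxycycline did not overlap, at a change of 0.74 (adjusted p = 0.651).

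PTGES, the inducible microsomal prostaglandin E synthase, was detected only with E2. It measured 8.24, 8.52 and 7.88 with E2 in the ERα line and 7.87, 7.41 and 7.53 in the ERβ line. On the other 12 arrays it lay between 4.72 and 5.97 and was undetected. E2 raised it at least 3.74-fold in the ERα line, a fitted change of 3.40 ± 0.23 (limma, adjusted p = 2.87e-08). The ERβ line gave at least 2.40-fold, a fitted change of 1.95 ± 0.23. Of the 4 genes with the widest range of group means, PTGES was the only one whose mean with E2 was higher in the ERα line, by 0.61 and with no overlap. PTGES too entered the test only through its 6 arrays with E2, and with no detection filter its adjusted p for E2 in the ERα line was 3.10e-08.

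The fitted E2 response of PTGES was 1.44 ± 0.32 smaller in the ERβ line than in the ERα line (limma, adjusted p = 0.00884). Over the other settings the difference was -1.61 to -0.79, with adjusted p from 8.16e-04 to 0.0276. Both baselines were below detection and each response is measured only as a bound, so neither the size nor the call of this difference is settled by measured levels. Doxycycline changed the undetected levels by 0.38 ± 0.23 in the ERβ line (limma, adjusted p = 0.276). By the brightest probe of each gene, 1 of 8 was called for a different E2 response, PTGES, against 8.7% of all genes. No p is given for that difference in LPAR1 (0.18 ± 0.26), CMKLR1 (-0.09 ± 0.35) and PLA2G4D (0.24 ± 0.36), which were chosen on the ERβ side of it.

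PTGER2, a prostaglandin E2 receptor, was detected on the 9 ERα arrays and on none of the 9 ERβ arrays. Its levels in the ERα line were 7.34, 8.30 and 8.27 without doxycycline, 7.67, 7.88 and 8.35 with it, and 6.76, 7.18 and 7.06 with E2. All ERβ values lay between 4.88 and 5.91. E2 lowered PTGER2 in the ERα line by 0.96 ± 0.26, or 1.95-fold (limma, adjusted p = 0.0140), with no overlap. The call was lost without 1 of the doxycycline arrays (adjusted p = 0.0691) or 1 of the E2 arrays (0.0629). Without doxycycline PTGER2 was at least 2.96-fold higher in the ERα line than in the ERβ line (limma, adjusted p = 2.30e-06). It passed the detection filter only through its ERα arrays, so this call is not separate support for a difference between the lines. A fall in the ERβ line could not be seen at these levels, and the difference between the E2 responses was 0.81 ± 0.37 (limma, adjusted p = 0.231).

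PTGS1, the constitutive cyclooxygenase, was undetected on all 18 arrays by both of its probes, and so was PTGER4, a second cyclic AMP-raising prostaglandin E2 receptor, by its 1 probe. Their levels lay between 4.82 and 5.97. Nothing can be said of their changes below the detected range.

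Across comparisons the 8 genes differed in kind. With doxycycline alone, 0 of 8 were called by limma in the ERα line, where 0.0148% of all genes (2 of 13505) were called. At an unadjusted p under 0.05 the count was also 0, as it was for calls in the authors' processed values. Induction of the ERβ line called 2 of 8 higher, LPAR1 and CMKLR1, against 20.6% of all genes. For the difference between the doxycycline responses, 1 of 8 was called, LPAR1, against 9.66%. Between the lines without doxycycline, PTGS2 was higher and LPAR1, LPAR2 and PTGER2 were lower in the ERβ line, 4 of 8 against 50.5% of all genes. That comparison holds the line, the vector and any uninduced receptor together, and these cannot be told apart. The mean level of the 10 bone markers also differed between the lines, at 9.72 to 10.13 on the ERα arrays and 9.02 to 9.55 on the ERβ arrays, while that of the 8 leukocyte markers was 6.64 to 7.10 over all arrays. Among the bone markers COL1A1 had the widest range of group means, from 9.19 to 15.05, so the mean level need not describe each marker. The part of these markers in the results was not tested. Groups did not overlap for 6 of 8 genes with E2 in the ERα line (38.4% of all genes) and 5 of 8 in the ERβ line (27.2%). They did not overlap for 0 of 8 with doxycycline in the ERα line (8.74%), 3 of 8 with doxycycline in the ERβ line (34%) and 3 of 8 between the lines without it (55%). The E2 counts are not support for a response of the list. E2 in the ERβ line chose LPAR1, CMKLR1 and PLA2G4D, and CMKLR1, PLA2G4D and PTGES passed the detection filter only through their arrays with E2.

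**Figure D3:**
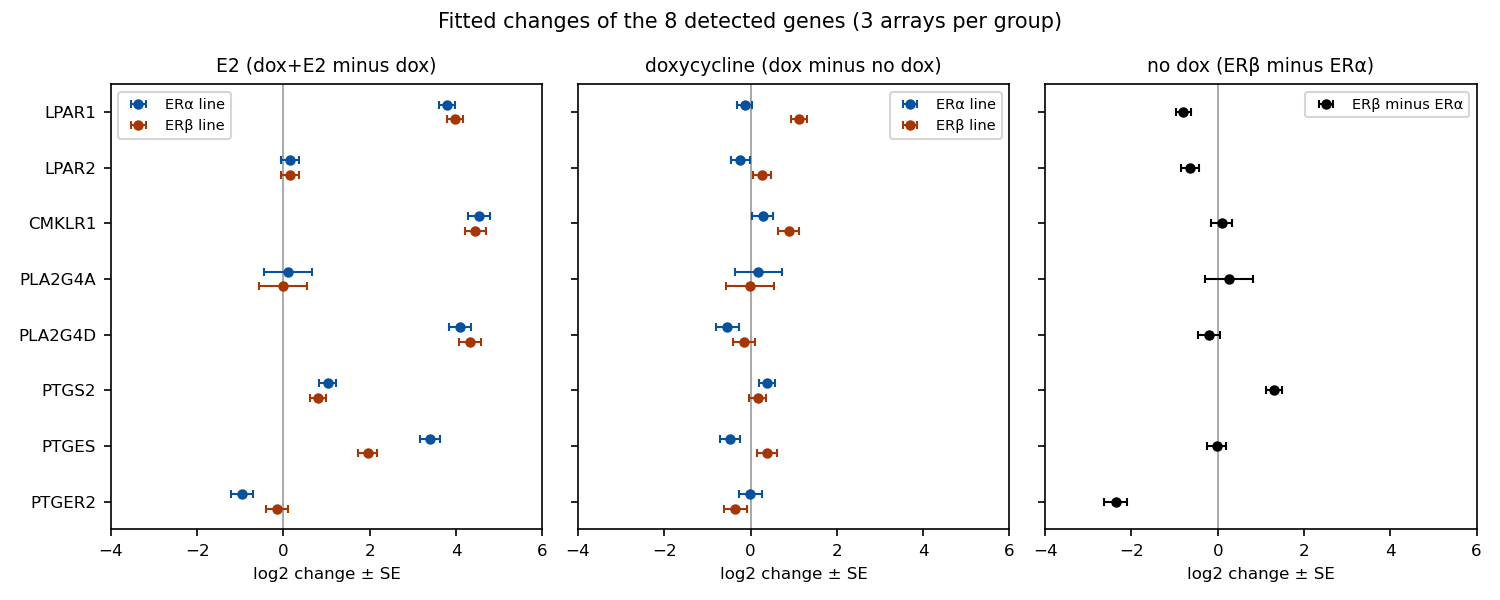
Fitted log2 change ± SE (x axis) of the 8 detected genes (y axis) for E2 and for doxycycline in each line, and for the ERβ line minus the ERα line without doxycycline, with 3 arrays per group. LPAR1, CMKLR1 and PLA2G4D change by 3.80 to 4.54 with E2 in both lines, PTGES by 3.40 and 1.95, and PTGER2 by -0.96 in the ERα line.

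The rest of the pathways was read from 7 lists of 71 genes outside the 10, of which 47 were detected and tested. E2 raised 15 and lowered 4 of the 47 in the ERα line, where 10.9% of all genes rose and 11.1% fell, and raised 10 and lowered 2 in the ERβ line, where 6.98% rose and 6.83% fell. The median change was -0.0402 and -0.0362, beside -0.0332 and -0.0336 over all genes. Doxycycline alone raised 13 and lowered 5 in the ERβ line, where 9.9% of all genes rose and 10.7% fell, and changed 0 in the ERα line (limma, 5 at an unadjusted p under 0.05, 0 called in the authors' processed values). Between the lines without doxycycline 6 were higher and 13 lower in the ERβ line, where 26.4% of all genes were higher and 24.1% lower, 50.5% together.

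SLCO2A1, the carrier that takes prostaglandins into cells for breakdown, had the most significant E2 change of the lists in both lines. Its levels were 11.21, 10.87 and 10.68 in the ERα line without doxycycline, 10.51, 10.56 and 10.80 with it, and 13.54, 13.71 and 13.65 with E2. In the ERβ line they were 6.61, 6.62 and 6.39, then 7.52, 7.76 and 7.67, then 11.11, 11.14 and 11.04. Every step of the ERβ line was free of overlap. E2 raised SLCO2A1 8.05-fold in the ERα line (limma, adjusted p = 1.23e-10) and 10.9-fold in the ERβ line (1.77e-10), and doxycycline alone raised it 2.15-fold in the ERβ line (9.69e-06). Without doxycycline it was 20.8-fold lower in the ERβ line (adjusted p = 1.14e-12).

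HPGD, which inactivates prostaglandins once they are inside cells, was detected with E2 in the ERα line (6.50, 6.85 and 6.66), on 1 ERα array without doxycycline (6.27) and on none of the ERβ arrays. E2 raised it at least 1.29-fold in the ERα line (limma, adjusted p = 0.00685), to a level close to the edge of detection. HPGD would not have passed the detection filter without those arrays with E2. Its E2 response was not called different between the lines (limma, adjusted p = 0.0913). Of the 6 transport and breakdown genes, 3 rose and 0 fell with E2 in the ERα line (10.9% and 11.1% of all genes). In the ERβ line 2 rose (6.98% of all genes). SLCO3A1, a related carrier, rose in both, by 0.95 and 0.92 on the log2 scale.

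With E2, 10.9% (ERα) and 6.98% (ERβ) of all genes rose. Among 6 other prostanoid synthases, PTGDS, which makes prostaglandin D2, was the 1 that rose with E2 in each line. Its levels in the ERα line were 7.33, 7.69 and 7.74 with doxycycline and 10.26, 10.40 and 10.31 with E2. In the ERβ line they were 7.23, 7.37 and 6.71 with doxycycline and 7.73, 7.83 and 8.12 with E2. The rise was 6.66-fold in the ERα line (limma, adjusted p = 6.55e-08) and 1.72-fold in the ERβ line (0.0127). The E2 response was 1.95 ± 0.28 smaller in the ERβ line (limma, adjusted p = 3.01e-04), and PTGDS was detected on every array of the 4 groups behind this value. PTGIS, the prostacyclin synthase, rose 3.04-fold with doxycycline in the ERβ line (limma, adjusted p = 7.40e-04), over a group detected on 2 of 3 arrays.

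Of 4 other prostanoid receptors, PTGER3 and TBXA2R rose with E2 in each line, where 10.9% (ERα) and 6.98% (ERβ) of all genes rose. PTGER3, a prostaglandin E2 receptor that lowers cyclic AMP, was undetected on all 6 ERα arrays without E2 and measured 6.22 (not detected), 6.25 and 7.19 with E2. In the ERβ line it was undetected without doxycycline and measured 7.10, 7.06 and 7.64 with it and 10.36, 10.39 and 10.56 with E2. E2 raised it 8.98-fold in the ERβ line (limma, adjusted p = 1.29e-06) and at least 1.19-fold in the ERα line (0.00158). The ERα baseline of PTGER3 was not detected, so the sizes of these responses are not compared. TBXA2R, the thromboxane receptor, rose at least 1.88-fold in the ERα line (3.72e-05) and 2.89-fold in the ERβ line (5.41e-04), the latter over a group detected on 1 of 3 arrays. TBXA2R would not have passed the detection filter without its arrays with E2, so its place in the count of rises is not separate support. PTGFR, the prostaglandin F receptor, was 4.13-fold lower in the ERβ line without doxycycline (5.66e-06).

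**Figure D4:**
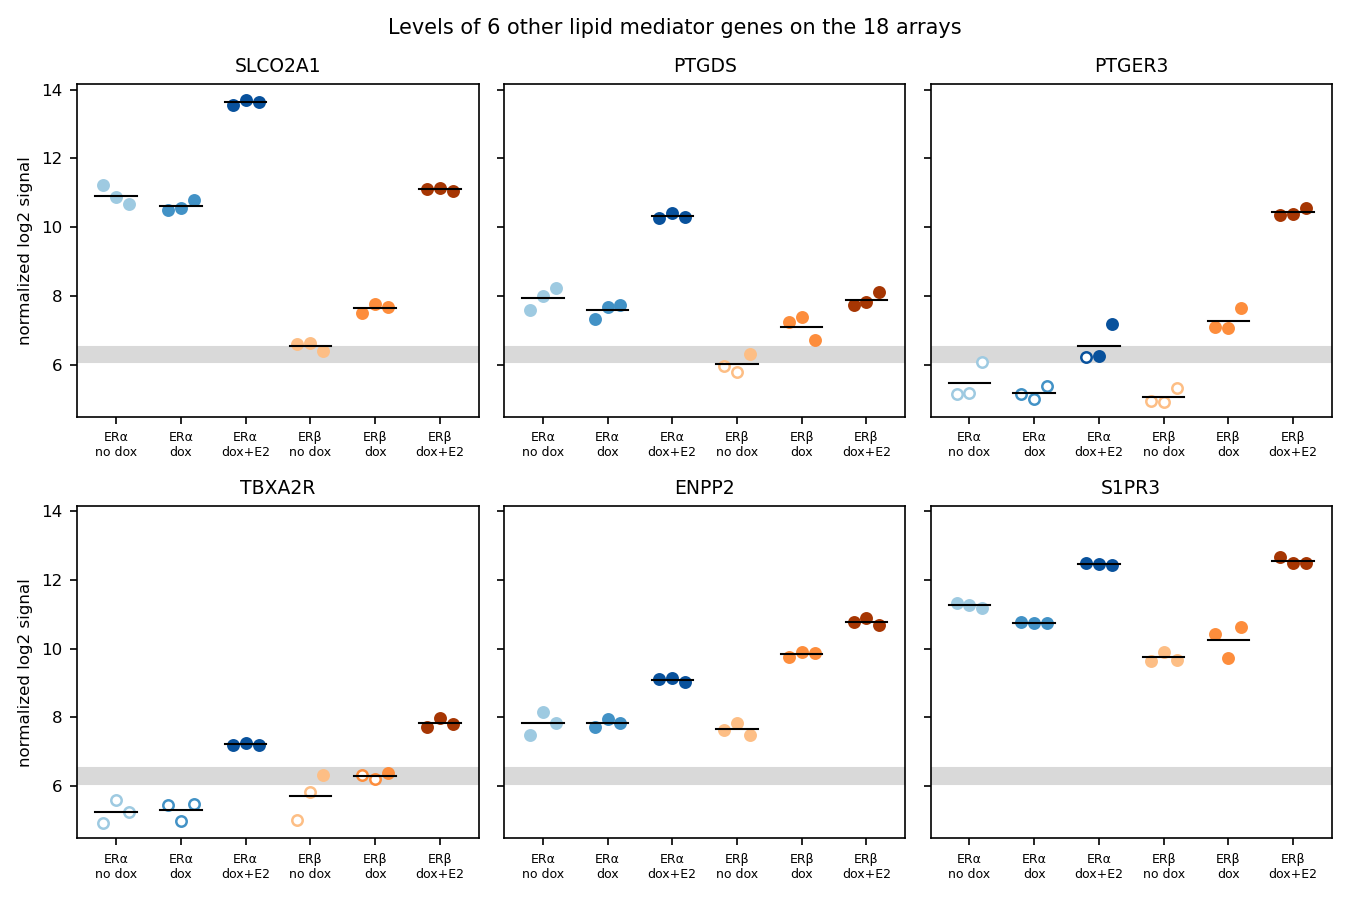
Normalized log2 signal (y axis) of 6 other lipid mediator genes in the 6 groups (x axis), with 1 point per array, open where undetected, a line at each group mean and a grey band where the detected range began (6.08 to 6.52). SLCO2A1 and S1PR3 rise with E2 in both lines, PTGDS is highest with E2 in the ERα line, and PTGER3 and ENPP2 are highest with E2 in the ERβ line.

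On the ligand side of LPAR1, ENPP2 was detected on all 18 arrays. Its levels were 7.49, 8.15 and 7.84 in the ERα line without doxycycline, 7.72, 7.94 and 7.85 with it, and 9.13, 9.14 and 9.03 with E2. In the ERβ line they were 7.63, 7.84 and 7.50, then 9.75, 9.91 and 9.86, then 10.79, 10.88 and 10.68. ENPP2 and LPAR1 thus were both higher with doxycycline alone in the ERβ line, where ENPP2 rose 4.53-fold (limma, adjusted p = 1.67e-08), and its doxycycline response was 2.17 ± 0.19 larger than in the ERα line (1.94e-06). E2 raised ENPP2 2.39-fold in the ERα line (5.66e-06) and 1.93-fold in the ERβ line (1.95e-04).

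A further ENPP2 probe, detected on all 18 arrays, rose 4.33-fold with doxycycline in the ERβ line (limma over all probes, adjusted p = 3.09e-07). Of the 11 tested genes of the lysophosphatidate and sphingosine 1-phosphate list, 6 rose and 3 fell with E2 in the ERα line (10.9% and 11.1% of all genes), and 3 rose and 2 fell in the ERβ line (6.98% and 6.83%). S1PR3, a sphingosine 1-phosphate receptor, rose 3.27-fold in the ERα line (limma, adjusted p = 1.57e-06) and 4.93-fold in the ERβ line (2.01e-07). S1PR1, another such receptor, rose more in the ERβ line, by a difference of 0.99 ± 0.17 (0.00149). S1PR5, a further such receptor, went the other way and fell 2.33-fold with E2 in the ERα line (limma, adjusted p = 0.0014). PLPP3, a phosphatase that breaks down lysophosphatidate, rose 2.54-fold with E2 in the ERα line (1.14e-05). In the ERβ line it rose 3.42-fold with doxycycline alone (8.12e-07).

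The ligand of CMKLR1 was not seen: RARRES2 was detected on 2 of 18 arrays and did not pass the filter, and CCRL2, a receptor that binds chemerin without signalling, was detected on 0. CMKLR2, a further chemerin receptor, was detected but not called in any comparison. Of 10 other phospholipases A2, 2 rose and 1 fell with E2 in the ERα line (10.9% and 11.1% of all genes). PLA2G15, the lysosomal form, rose 2.46-fold (limma, adjusted p = 1.20e-06), and its E2 response was 1.10 ± 0.17 smaller in the ERβ line (6.89e-04). PLA2G7, which breaks down platelet-activating factor, fell with doxycycline in the ERβ line by 1.21 ± 0.13 (8.19e-06). Of 9 leukotriene and lipoxygenase genes, 1 rose with E2 in each line, where 10.9% (ERα) and 6.98% (ERβ) of all genes rose. ALOXE3, an epidermal lipoxygenase, rose by 0.96 ± 0.19 in the ERα line (limma, adjusted p = 0.00154). ALOX5AP, which presents arachidonic acid to 5-lipoxygenase, rose by 0.56 ± 0.10 in the ERβ line (adjusted p = 0.00147).

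The genes most like the 4 with the widest range of group means (CMKLR1 5.42, LPAR1 5.12, PLA2G4D 4.52 and PTGES 3.40) were found by Pearson's correlation of levels over the 18 arrays, as a description. The arrays share the 6 groups, so any gene with the same group means correlates. CMKLR1 was closest to PDZK1 (0.992), SMTNL2 (0.989) and FAM222A (0.987). LPAR1 was closest to PAPSS2 (0.987), PDZK1 (0.986) and TMEM121B (0.982). PLA2G4D was closest to SMTNL2 (0.970), DNAJA4 (0.968) and CD22 (0.968). PTGES was closest to UCMA (0.974), FOXK1 (0.972) and JSRP1 (0.966). PDZK1 and SMTNL2 were each among the 3 closest genes of 2 of the 4.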

How the data were processed

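Total RNA (750 ng) from 18 samples was biotin-labelled, per the labels' protocols. The authors deposited a non-normalized table of probe intensity per array with a detection p-value for each probe, per the file headers, and a second table of processed intensities. The submitters' processing notes list lumi. No source used here gives the steps behind that second table, which served only as an alternative. The array files carry no count of molecules, so the number of arrays limits precision.

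Of 48804 probe lines, 1 repeated line was dropped. Of the 48803 probes, 27578 had 1 symbol, 13 several and 21212 none, and only those with 1 symbol are named. In R 4.3.3 with limma 3.58.1, intensities underwent normexp background correction informed by the detection p-values, an offset of 16, a log2 transform and quantile normalization (neqc). The 24226 probes detected (p under 0.01) on 3 or more of the 18 arrays stayed in, and each of 13505 genes was represented by its brightest such probe on average. A joint model of the 6 group means (lmFit, eBayes) used all arrays (12 residual and 2.66 prior degrees of freedom, median SE 0.139), and all tests were 2-sided. At least N-fold sets the brighter group's mean against, per array of the dim group, the higher of the detection limit and the probe's own level. Columns with doxycycline are known only by their group, while those without it carry sample numbers. Same-numbered columns of the lines without doxycycline deviated together (3 correlations, 0.212 to 0.531), and the block was fitted there as an alternative. These correlations come from 3 columns per line and are not independent, so they do not settle whether the numbers mark pairs. In the authors' processed values same-numbered columns correlated at -0.382 to 0.0451. 0 pairs of arrays were identical.

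All 10 genes and their probes are named. From the pathway lists, the rule allowed up to 2 called genes per list and comparison with the largest change, plus SLCO2A1, HPGD, ENPP2, RARRES2 and CCRL2. SLCO3A1 and S1PR5 in the ERα line were named after their values were seen. The members, lists and rule were chosen with earlier results of these data known. Alternatives tried were no background correction, other normalization, filters and probe rules, only the arrays compared, the authors' processed values, the replicate block and leaving out each array.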

Additional observations from a re-analysis of the deposited data

Results flagged for a closer look

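Of the 8 tested genes, 1 was called for a different doxycycline response and 1 for a different E2 response between the lines, where 9.66% and 8.7% of all genes were called, so these counts are near the share over all genes. The doxycycline response of LPAR1 was 1.27 larger in the ERβ line than in the ERα line (limma, adjusted p = 0.00466), with 3 of 3 doxycycline arrays of the ERβ line above its 3 arrays without doxycycline. Over the other settings the difference was 0.62 to 1.55, with adjusted p from 3.83e-05 to 0.0277. The dimmer LPAR1 probe, undetected on every array without E2, gave a difference of 0.35 ± 0.18 that was not called (limma over all probes, adjusted p = 0.355). The fitted E2 response of PTGES differed by -1.44 (ERβ minus ERα, adjusted p = 0.00884). Its baselines were below detection in both lines and it passed the filter only through its arrays with E2, so the responses are measured only as bounds, at least 3.74-fold and at least 2.40-fold, and do not show how much they differ.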

How the results depend on the processing

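Of 1485 member changes recomputed under alternative settings, 1468 kept their side of the threshold, 12 lost their call and 5 gained one. These include E2 in the ERβ line, which chose some of the genes, so its calls here are a description and not a test. Among changes called under either setting, 0 reversed direction. Uncalled changes that switched sign are counted within the 1468. An example is PLA2G4A for E2 in the ERα line, which ranged from -0.29 to 0.45. With detection required on all 18 arrays, 3 of the 10 genes were left to test, and the called counts were 1 for E2 in the ERα line, 1 for E2 in the ERβ line, 0 for doxycycline in the ERβ line, 0 for the E2 difference, 0 for the doxycycline difference and 2 without doxycycline. For doxycycline in the ERβ line, 1 was called without background correction, 1 with only the arrays compared, 1 to 2 with an array left out, and 3 with the authors' processed values (LPAR2 added, adjusted p = 0.0456). With the authors' processed values 2 were called for the E2 difference (PTGER2, adjusted p = 0.0354, added) and 3 for the doxycycline difference (LPAR2 and PTGES added), or 2 with the replicate block. The cause was not tested. With the replicate block on the uninduced arrays alone, 4 were called without doxycycline, the same calls as in the main fit of all 18 arrays. Without the block, the uninduced arrays alone lost the LPAR2 call (limma, adjusted p = 0.0641). Changes of dim probes were smaller without background correction or in the authors' values: E2 in the ERα line gave 2.76 and 3.08 for CMKLR1, 2.03 and 2.43 for PLA2G4D, and 1.55 and 1.98 for PTGES, all still called. Over all genes, the authors' values called 4683 and 3180 genes for E2 in the ERα and ERβ lines, 34 and 4648 for doxycycline, and 2495 and 2759 for the differences (1875 and 2106 with the block). With only the arrays compared, 1071 were called for E2 in the ERβ line, 0 and 1548 for doxycycline in the ERα and ERβ lines. In that setting PTGS2 no longer reached the threshold for E2 in the ERβ line, a comparison used only as a description. Signal over background limits PTGS1, PTGER4 and every level under 6.08.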
